A study of Mus musculus with 2 samples.

Results

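Mitosis is carried out by proteins that build the spindle, attach chromosomes to it, hold back anaphase until attachment is complete and then split the cell. Of these, 55 genes were chosen by name as a set, by role, with earlier results of these data known. The roles were mitotic kinases, spindle checkpoint, chromosomal passenger complex, kinesins, spindle microtubule proteins, centromere and kinetochore, condensin and topoisomerase, anaphase control, and cytokinesis. All 55 were found among the 25992 genes and unnamed loci of the study, and 54 reached 1 FPKM in at least 1 library. FPKM counts sequenced fragments per unit of transcript length and of sequencing total, so levels of different genes can be set side by side. Espl1, the gene of separase, stayed below that level in both.

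RNA was sequenced from mesenchymal stem/progenitor cells of the bone marrow of CD-1 mice aged 3 months, cultured in DMEM with fetal bovine serum. There was 1 library from PPARg-floxed cells (genotype label PPAR-flox) and 1 from PPARg-deficient cells (label PPAR KO), so no difference has a replicate check and no test was possible. PPARg, encoded by Pparg, is the nuclear receptor that drives fat cell formation. How the floxed gene was recombined, whether animals were pooled, and how long or how densely the cultures were grown is not given in the sources used here. Pparg was at 6.86 FPKM in the floxed and 1.39 FPKM in the deficient library.

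Most mitotic genes are transcribed in late S phase, G2 and mitosis and are nearly silent in resting cells, so in a culture their RNA is commonly read as a sign of dividing cells. Many are held off in quiescent cells and switched on in dividing ones through a pair of promoter elements, the CHR element, bound by MuvB complexes, and the CCAAT box, bound by NF-Y. The transcription factors FOXM1 and B-MYB act through MuvB at such promoters.

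The shift of the whole transcriptome sets the scale. Coverage times length summed to 1383 megabases for the floxed and 1728 for the deficient cells, and 8290 and 10296 of the kept loci reached 1 FPKM. Across the 10758 kept loci, the median difference was 0.86 on the log2(FPKM + 1) scale, higher in the deficient library, a fold of 1.81. Relative differences below are log2(FPKM + 1), deficient minus floxed, less this shift. A locus was called at 2-fold by size alone. Of 12 stromal markers 10 were kept, with a summed 1108 and 1831 FPKM, and a median relative difference of -0.37. They ranged from Cxcl12 at 60.4 and 318 FPKM (1.52) and Pdgfrb at 21.8 and 74.0 FPKM (0.86) to Col1a1 at 173 and 191 FPKM (-0.72) and Nt5e at 1.86 and 1.01 FPKM (-1.37). Thy1 and Eng stayed under 1 FPKM. Of 9 leukocyte markers 2 were kept, with a summed 1.82 and 21.6 FPKM: Cd68 at 1.56 and 2.10 FPKM and Lyz2 at 0.26 and 19.5 FPKM. Ptprc, Cd3e, Itgam and Adgre1 were listed at 0 in both. The part of Lyz2-expressing cells in the results was not tested. None of 10 matched markers of dividing marrow blood precursors (Elane, Prtn3, Klf1, Gata1 and Myb listed at 0 in both) and none of 5 endothelial markers reached 1 FPKM.

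All 54 kept mitotic genes had a higher FPKM in the deficient library, where 86.1% of kept loci did. As deposited, 51 of the 54 were at least 2-fold higher, against 42% of kept loci, and 0 were 2-fold lower, against 4.71%. Relative to the median gene, 53 of 54 lay above it (50% of loci do so by construction), 20 were at least 2-fold higher against 10.3% of kept loci, and 0 were 2-fold lower against 11.8%. The 5 kept members under 1 FPKM in the floxed library (Cdc20, Plk1, Incenp, Spc24 and Mki67) passed only through the deficient library. Among the 37 members of at least 5 FPKM in the floxed library, 13 were 2-fold higher relative to the median gene, where 424 of the 4184 kept loci at that level (10.1%) were. The median relative difference of the 54 was 0.81 and the middle 50% of members lay between 0.60 and 1.15. For all kept loci that range was -0.46 to 0.50. In bulk RNA, more dividing cells and more mitotic RNA per dividing cell cannot be told apart.

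**Figure D1:**
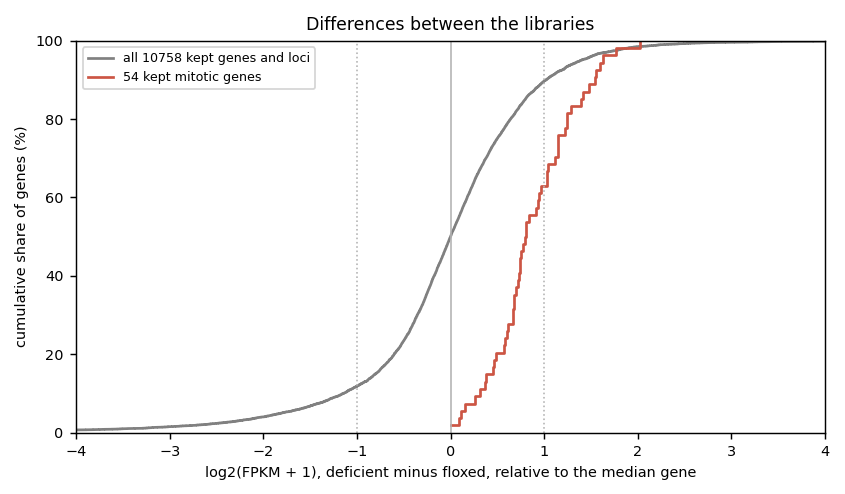
Cumulative share of genes (vertical, %) by the difference between the libraries (horizontal, log2(FPKM + 1), deficient minus floxed, relative to the median gene). The 54 kept mitotic genes (red) start at the median gene and have a median of 0.81, to the right of all 10758 kept loci (grey); dotted lines mark 2-fold.

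Promoter sequence is shown because the members lay on one side of the median gene and differed in size. In the RefSeq table (build GRCm38.p6), 48 of the 55 genes had an entry. For 37 of the 48, bases just after the start were found in an annotated transcript. A gene with several entries counted as matching if any of them matched. The 250 bases before each start were searched on both strands for the CHR letters (TTTGAA or TTCGAA) and for CCAAT, with overlapping matches counted. A CHR match was found in 19 of the 48 (39.6%), against 19.6% of the 27025 genes in the table. CCAAT was found in 32 (66.7%) against 37.5%, and both in 17 (35.4%) against 7.0%. Kept members with a CHR match had a median relative difference of 0.90 (18 genes) and those without one 0.84 (29 genes). For CCAAT the medians were 0.97 (31 genes) and 0.71 (16 genes), and for both motifs 1.09 (16 genes) and 0.81 (31 genes). None of these differences was tested. The ranges of these sets overlapped, since Cks1b and Bub1b hold both motifs and lay near the median gene. The 150 bases before the start are given, 5′ to 3′, for the 3 members with the largest and the 3 with the smallest relative difference among kept members with 1 entry. Capitals mark matches to either motif, where TTCAAA and ATTGG are TTTGAA and CCAAT read on the other strand.
Ube2c (GRCm38.p6 chr2:164769779-164769928, plus strand): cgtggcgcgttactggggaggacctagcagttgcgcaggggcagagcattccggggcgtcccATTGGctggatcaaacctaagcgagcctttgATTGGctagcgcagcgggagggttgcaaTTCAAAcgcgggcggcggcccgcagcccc
Kif22 (GRCm38.p6 chr7:127042421-127042570, minus strand): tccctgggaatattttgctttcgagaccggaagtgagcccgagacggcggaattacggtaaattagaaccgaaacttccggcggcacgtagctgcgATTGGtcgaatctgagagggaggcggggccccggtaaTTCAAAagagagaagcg
Ckap2 (GRCm38.p6 chr8:22185820-22185969, minus strand): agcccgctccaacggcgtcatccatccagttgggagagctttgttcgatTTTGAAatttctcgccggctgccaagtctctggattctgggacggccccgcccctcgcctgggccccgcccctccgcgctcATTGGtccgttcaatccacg
Cks1b (GRCm38.p6 chr3:89418292-89418441, minus strand): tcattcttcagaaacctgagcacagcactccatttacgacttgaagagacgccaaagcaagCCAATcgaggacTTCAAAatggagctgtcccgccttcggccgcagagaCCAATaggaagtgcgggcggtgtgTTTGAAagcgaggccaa
Melk (GRCm38.p6 chr4:44300767-44300916, plus strand): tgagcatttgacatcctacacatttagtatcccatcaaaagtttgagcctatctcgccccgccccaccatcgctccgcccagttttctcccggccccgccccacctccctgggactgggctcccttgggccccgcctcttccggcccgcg
Bub1b (GRCm38.p6 chr2:118598061-118598210, plus strand): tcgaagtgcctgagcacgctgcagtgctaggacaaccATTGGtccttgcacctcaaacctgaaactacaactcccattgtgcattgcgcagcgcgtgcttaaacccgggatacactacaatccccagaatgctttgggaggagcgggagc
Ube2c, Kif22 and Ckap2, at the top of the range, hold both motifs within these 150 bases, and so does Cks1b, near the bottom. Bub1b holds CCAAT here and its CHR letters farther upstream, and Melk holds neither in 250 bases. A match is a description of letters, and binding was not measured.

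Ube2c had the largest relative difference of the 54 kept genes. UBE2C is the enzyme that supplies ubiquitin to the anaphase promoting complex. Ube2c, on chromosome 2 from 164595429 to 164598402 (mm9), was at 9.70 FPKM in the floxed and 78.1 FPKM in the deficient library, a relative difference of 2.03. The deposited bounds of its single transcript were 7.28 to 12.1 and 71.4 to 84.9 FPKM, far apart. CDC20 activates the complex at the end of metaphase, and Cdc20 was at 0.49 and 6.83 FPKM (relative difference 1.54). Pttg1, which encodes securin, the inhibitor of separase, was at 64.5 and 207 FPKM (0.81). Espl1, the separase gene itself, was at 0.10 and 0.71 FPKM. Of 16 kept genes of anaphase promoting complex subunits and activators, 2 were 2-fold higher and 0 lower relative to the median gene, with a median of 0.02. The share higher, 12.5%, is near the 10.3% of all kept loci. Anapc15 (5.09 and 33.5 FPKM, 1.65), Anapc16 (13.4 and 60.2 FPKM, 1.23) and Anapc5 (4.79 and 19.6 FPKM, 0.97) had the largest differences among its genes of at least 5 FPKM in a library.

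Aurora B and its partners form the chromosomal passenger complex, which corrects faulty attachments and later moves to the midzone. Aurkb, on chromosome 11 from 68859145 to 68865164 (mm9), was at 3.65 and 24.4 FPKM (relative difference 1.60). Birc5, the survivin gene, was at 43.5 and 187 FPKM (1.22), and Cdca8, the borealin gene, at 5.89 and 28.6 FPKM (1.24). Incenp, the gene of the scaffold that binds all of them, was at 0.29 and 2.02 FPKM (0.37). Its plain FPKM ratio was 6.9, which the pseudocount of 1 FPKM shrinks on the log2 scale. Survivin RNA exceeded that of Incenp 148-fold in the floxed and 92.5-fold in the deficient library on the FPKM scale. The floxed Incenp value had deposited bounds of 0.09 to 0.5 FPKM, so the 148-fold ratio is uncertain.

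Aurka, whose kinase matures centrosomes, was at 25.3 and 96.6 FPKM (relative difference 1.03). Plk1, the gene of polo-like kinase 1, which drives mitotic entry and spindle assembly, lay on chromosome 7 from 129302951 to 129313389 (mm9). Its floxed level was 0.17 FPKM, with deposited bounds of 0 to 0.36, and its deficient level 3.69 FPKM, with bounds of 2.8 to 4.58. That was the largest plain ratio of the set, 22.3, but its floxed transcript had a mean coverage of only 0.25 reads per base, and its relative difference was 1.15. The kinase gene Melk was near the median gene, at 6.14 and 12.7 FPKM (0.09).

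Spindle checkpoint genes ran from the median gene to over 2-fold above it. Bub3, which encodes the adaptor that brings BUB1 and BUBR1 to kinetochores, was the most abundant member in the deficient library, at 75.3 and 305 FPKM (relative difference 1.15). Of its deficient value, 60.3% lay in a transcript of 500 nt and 5 exons, and its transcript of 2055 nt was at 36.9 and 107 FPKM. Bub1, a checkpoint kinase gene, was at 5.57 and 20.3 FPKM (0.84). The inhibitor of CDC20, Mad2l1, was at 31.4 and 88.2 FPKM (0.61), and the upstream kinase Ttk at 3.76 and 11.9 FPKM (0.58). Bub1b, the BUBR1 gene, had the smallest difference of all kept members, at 14.6 and 27.1 FPKM, at the median gene (0.00). Its deposited bounds, 13.2 to 15.9 and 25.3 to 29 FPKM, did not overlap. BUBR1 and MAD2 act in one inhibitory complex, and the ratio of Mad2l1 to Bub1b FPKM was 2.16 in the floxed and 3.25 in the deficient library.

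**Figure D2:**
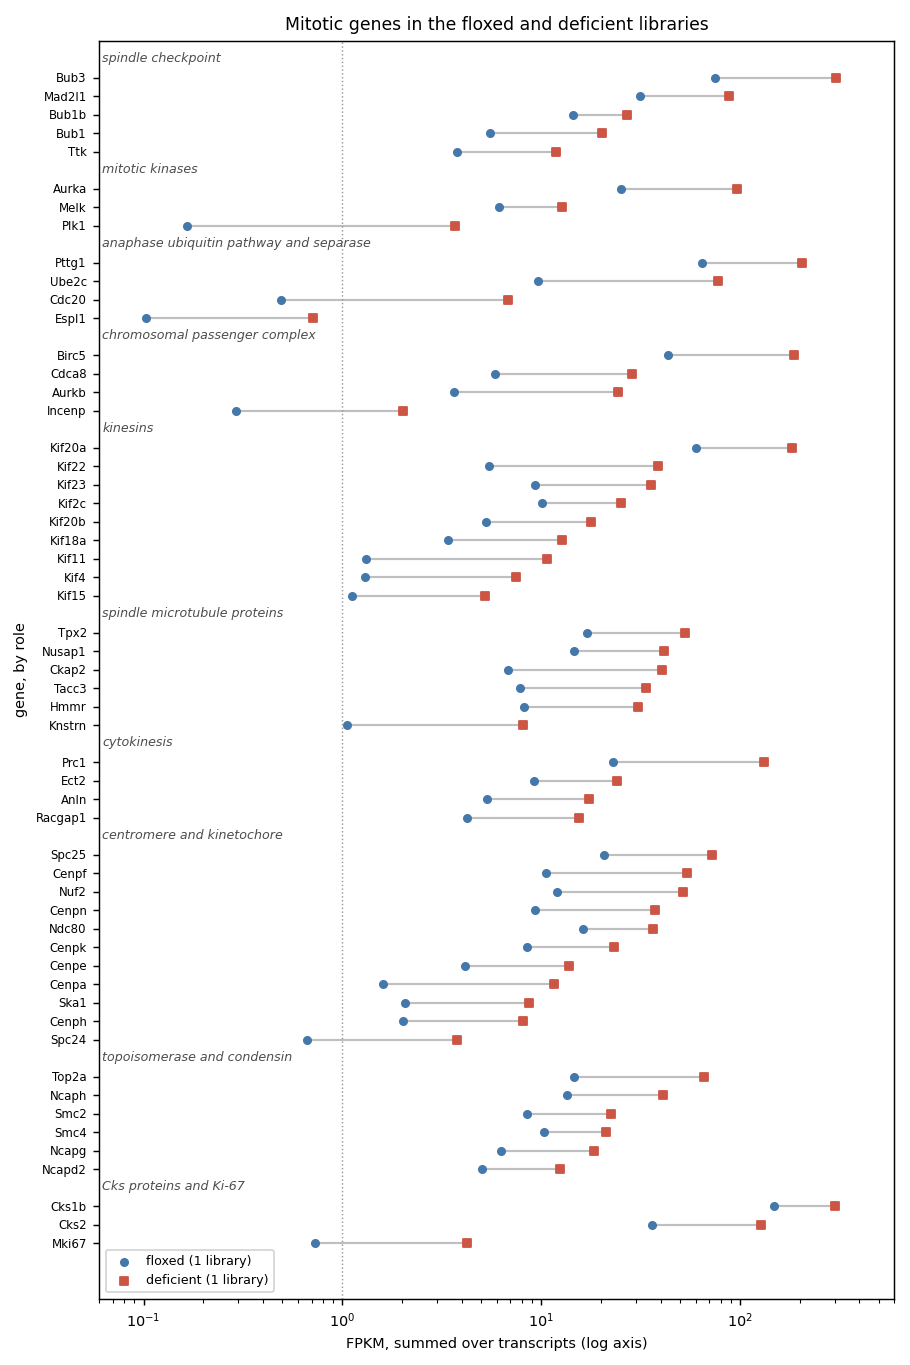
FPKM (log axis) of all 55 genes, ordered by role and then by level, in the floxed (blue circle) and deficient (red square) library, 1 library each; the dotted line is 1 FPKM. Every gene lies further right in the deficient library, from Bub1b (14.6 to 27.1 FPKM) to Plk1 (0.17 to 3.69 FPKM).

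All 9 kinesin genes lay above the median gene, where 50% of kept loci lie by construction. At least 2-fold above it were 3 of the 9, where 10.3% of kept loci were. Kif22, which encodes the chromokinesin that pushes chromosome arms, was at 5.48 and 38.9 FPKM (relative difference 1.77). Kif11, the gene of the Eg5 motor that separates spindle poles, was at 1.32 and 10.7 FPKM (1.48), and Kif4, a chromokinesin and midzone motor gene, at 1.31 and 7.50 FPKM (1.03). Kif4 overlaps Pdzd11 on the opposite strand. Kif15, the gene of a motor that acts beside Eg5, was at 1.12 and 5.22 FPKM (0.70). Kif18a, whose motor dampens chromosome movement, was at 3.42 and 12.8 FPKM (0.78), and Kif2c, which encodes the microtubule depolymerase MCAK, at 10.1 and 25.2 FPKM (0.38). A further 3 kinesins act in cytokinesis. Kif23, the MKLP1 gene, was at 9.28 and 35.6 FPKM (0.97), Kif20a, the MKLP2 gene, at 60.1 and 183 FPKM (0.73), and Kif20b at 5.28 and 17.8 FPKM (0.72). Kif20a overlaps Cdc23 by 1595 bases on the opposite strand. Shorter overlaps join Cdc20 with Elovl1, Kif18a with Mettl15, Nusap1 with Oip5, Cenpk with Ppwd1 and Kif20a with Brd8, and Ncapg overlaps Lcorl by 3364 bases, all on opposite strands. Smc4 and Ncapd2 each overlap an unnamed locus on the same strand. Strand handling is not given in the sources used here, so reads of such neighbours may not be separable.

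Spindle microtubule genes ranged from 0.60 to 1.56 in relative difference. Ckap2, which encodes a microtubule stabiliser, was highest, at 6.79 and 40.7 FPKM (1.56). Knstrn, the gene of the kinetochore and spindle protein kinastrin, was at 1.06 and 8.10 FPKM (1.29). Tacc3, whose protein cross-links kinetochore fibres, was at 7.86 and 33.8 FPKM (1.12), and Hmmr at 8.18 and 30.9 FPKM (0.94). Tpx2, the activator of Aurora A on the spindle, was at 16.9 and 53.2 FPKM (0.74), and Nusap1 at 14.6 and 41.8 FPKM (0.60).

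Of the 4 cytokinesis genes, 1 was 2-fold above the median gene, where 10.3% of kept loci were. PRC1 bundles the antiparallel microtubules of the midzone, and Prc1 was at 22.9 and 133 FPKM (relative difference 1.63). Racgap1 and Ect2 encode the centralspindlin subunit and the exchange factor that together activate RhoA at the cell equator. They were at 4.23 and 15.6 FPKM (0.81) and at 9.20 and 24.2 FPKM (0.45). Anln, the gene of the contractile ring scaffold anillin, was at 5.34 and 17.4 FPKM (0.68).

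Among 11 centromere and kinetochore genes, 4 were at least 2-fold above the median gene, where 10.3% of kept loci were. Of the 11, 0 were 2-fold below it, where 11.8% of kept loci were. Cenpa, which encodes the histone H3 variant that marks centromeres, was at 1.61 and 11.6 FPKM (relative difference 1.42). Cenpf was at 10.6 and 54.0 FPKM (1.39), but 87.1% and 89.9% of that lay in a transcript of 394 nt and 3 exons, with bounds of 23.4 to 73.7 FPKM in the deficient library. Its transcript of 11122 nt was at 1.37 and 5.44 FPKM, with bounds apart. Cenpn, whose protein reads CENP-A nucleosomes, was at 9.31 and 37.4 FPKM (1.04). Of its deficient value, 60.9% lay in a transcript of 1768 nt, at 8.69 and 22.7 FPKM. Its transcripts of 1842 and 929 nt, with 17.8% and 21.3%, were listed at 0 in the floxed library. Inner kinetochore genes Cenph (2.02 and 8.13 FPKM, 0.74) and Cenpk (8.49 and 23.2 FPKM, 0.49) had smaller relative differences. The plain ratio of Cenph, 4.03, was however near that of Cenpn, 4.02, since the pseudocount shrinks low genes more. Cenpe, the gene of a kinetochore motor, was at 4.16 and 13.9 FPKM (0.67), and Ska1, of the complex that holds on to shrinking microtubules, at 2.07 and 8.69 FPKM (0.80).

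The NDC80 complex, which grips microtubules, was uneven. Nuf2 was at 12.1 and 51.6 FPKM (relative difference 1.15), whereas its dimer partner Ndc80 was at 16.3 and 36.5 FPKM (0.26). The order of the pair turned: the ratio of Nuf2 to Ndc80 was 0.742 in the floxed and 1.41 in the deficient library. Spc25 was at 20.6 and 72.4 FPKM (0.91) and Spc24 at 0.67 and 3.79 FPKM (0.67), the lowest subunit in both libraries. With 1 library per group the size of such shifts between cultures is unknown.

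Chromosome condensation genes were the role group nearest to the median gene, with a median of 0.51 over 6 genes. Top2a, which encodes the topoisomerase that untangles sister chromatids, was the exception, at 14.6 and 65.9 FPKM (relative difference 1.25). The condensin ATPase genes Smc2 (8.50 and 22.6 FPKM, 0.46) and Smc4 (10.4 and 21.2 FPKM, 0.11) lay lower. Of the condensin I subunits, Ncaph was at 13.6 and 41.2 FPKM (0.68), Ncapg at 6.28 and 18.6 FPKM (0.57) and Ncapd2 at 5.02 and 12.5 FPKM (0.31).

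Cks1b and Cks2 encode small proteins that help cyclin-dependent kinases dock on their substrates. Cks1b was the most abundant member in the floxed library, at 149 FPKM, and was at 303 FPKM in the deficient library (relative difference 0.16). Cks2 was at 36 and 129 FPKM (0.95), and its FPKM ratio to Cks1b was 0.241 and 0.424. The coding sequences are similar, so how reads were shared between them is uncertain. Mki67, the Ki-67 gene and the usual proliferation marker, was low in both, at 0.73 and 4.25 FPKM (0.75).

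The order of the members by level was largely shared. Cks1b, Bub3, Pttg1, Kif20a and Birc5 led in the floxed library, and Bub3, Cks1b, Pttg1, Birc5 and Kif20a in the deficient library. Across the 54 genes, which are not independent replicates, levels in the 2 libraries had a Spearman rho of 0.94 (0.83 over all kept loci). Summed over the 55 genes, FPKM was 817 in the floxed and 2774 in the deficient library, a ratio of 3.4. Single kept members ranged in plain ratio from 1.86 to 22.3, with a median of 3.79. Near the 2-fold line, 10 members lay within 0.25 above it and 9 within 0.25 below it on the log2 scale, so the count of 20 depends on where the line is set. The relative difference had a Spearman rho of -0.30 with the length of the main transcript and -0.36 with its number of exons. Both are across 54 genes and a description only.

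The transcripts give the same direction with some exceptions. The main transcript was the one with the largest FPKM over both libraries together, a choice that leans to forms high in the deficient library. In Spc24 it was at 0 and 3.47 FPKM, while the transcript of 1216 nt was at 0.67 and 0.32 FPKM. The bounds of the main transcript lay apart and higher in the deficient library for 54 of 54 kept genes. Of these genes, 5 were kept only through that library. By the same rule 63.5% of kept loci had such bounds. These bounds describe the estimate within 1 library, not the spread between cultures. Of 142 transcripts of the 55 genes, 118 reached 1 FPKM in a library. Of these, 107 were higher with bounds apart, 7 had bounds that overlapped and 4 were lower with bounds apart. Some of the 107 passed only through the deficient library, such as the Kif11 transcripts of 4848 and 5558 nt, at 0 in the floxed. The share over all transcripts is not given here, so 107 of 118 is a description only. The 4 lower ones belonged to Ect2, Ndc80, Top2a and Kif23. The Ect2 transcript of 3986 nt was at 4.26 and 0.67 FPKM, while that of 4024 nt was at 1.91 and 17.5 FPKM. The latter held 20.7% of the gene's FPKM in the floxed and 72.1% in the deficient library. In Top2a a transcript of 5218 nt had 4.32 FPKM in floxed cells, and the upper bound of its deficient value was 0.04 FPKM. A transcript of 5217 nt, also of 36 exons, was at 8.83 and 47.8 FPKM. The 2201 nt transcript of Ndc80 held 64.5% of its FPKM in the floxed and 95.3% in the deficient library. The Kif11 transcript of 4819 nt was at 1.32 and 4.88 FPKM and held 45.5% of the gene's FPKM in the deficient library. Most of Bub3 lay in a transcript of 500 nt (38.3 and 184 FPKM) and one of 2055 nt (36.9 and 107 FPKM). Among 36 genes with at least 2 such transcripts, 31 kept the same leading transcript, and Bub1, Cenph, Ect2, Kif23 and Kif4 did not. How reads were divided among such similar transcripts was not tested.

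**Figure D3:**
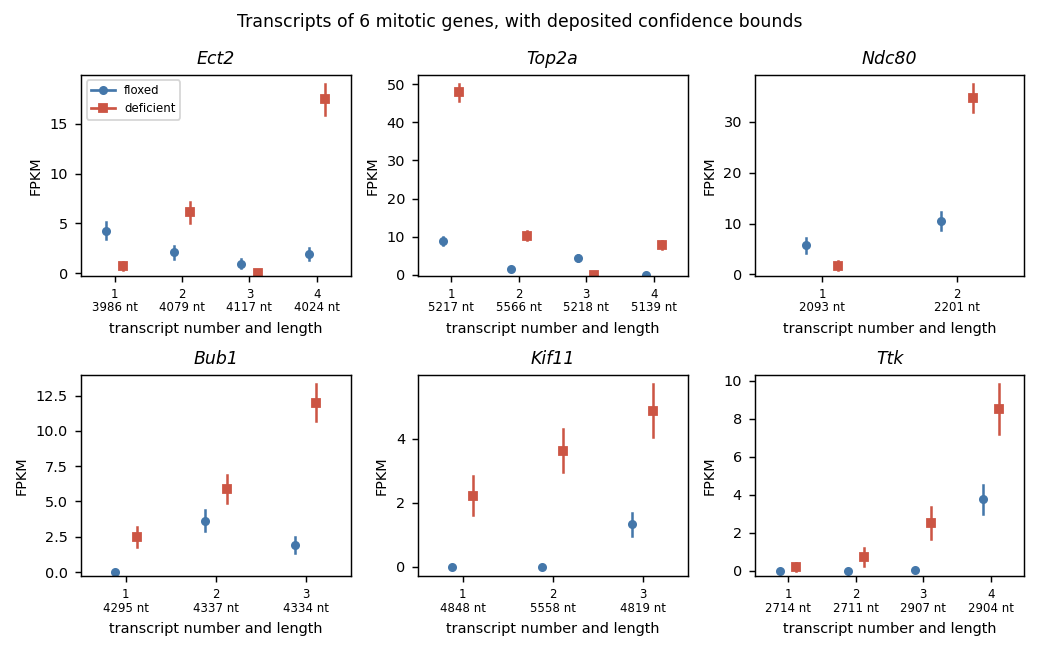
FPKM of each transcript of 6 genes (numbered, with length), in the floxed (blue) and deficient (red) library; vertical lines are the deposited confidence bounds within 1 library. In Ect2 transcript 1 was at 4.26 and 0.67 FPKM and transcript 4 at 1.91 and 17.5 FPKM, and in Ndc80 transcript 1 was at 5.79 and 1.73 FPKM.

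Other lists of cell division genes were counted at 2-fold relative to the median gene, where 10.3% of all kept loci were higher and 11.8% lower. Except for Foxm1 and Mybl2, the genes named from them reached 5 FPKM in a library, and those under 1 FPKM in the floxed library were kept only through the deficient one. Of 28 kept centromere and kinetochore genes outside the 55, 8 were higher (28.6%) and 0 lower (median 0.59), and 2 of the 8, Mis18a among them, were under 1 FPKM in the floxed library. Mis18a, which encodes a licensing factor for new CENP-A, was at 0.80 and 8.10 FPKM (1.48), Cenpo at 1.93 and 13.7 FPKM (1.47) and Pmf1 at 1.61 and 11.0 FPKM (1.34). Of 15 kept checkpoint, cohesion protection and mitotic entry genes, 7 were higher (46.7%) and 0 lower (median 0.89), and 1 of the 7, Trip13, was under 1 FPKM in the floxed library. Trip13, which encodes the ATPase that takes apart the checkpoint complex, was at 0.39 and 6.46 FPKM (1.56). Cdca5, the sororin gene, was at 2.33 and 15.9 FPKM (1.48), and Cdc25c, a phosphatase gene of mitotic entry, at 1.84 and 13.1 FPKM (1.46). Of 34 kept spindle, centrosome and cytokinesis genes, 7 were higher (20.6%) and 0 lower (median 0.46), and 1 of the 7 was under 1 FPKM in the floxed library. The largest differences among genes of at least 5 FPKM were in Dlgap5 (5.66 and 29.8 FPKM, 1.35), Cep55 (3.67 and 20.0 FPKM, 1.31) and Spag5 (2.71 and 14.8 FPKM, 1.24).

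Cohesin and condensin II genes lay close to the median gene (median 0.16 over 12 genes, 1 higher and 1 lower). Smc1a, a cohesin ATPase gene, was at 36.6 and 138 FPKM (1.03), Ncaph2 at 2.27 and 10.8 FPKM, just under the 2-fold line, and Wapl, which encodes the cohesin release factor, at 10.4 and 8.34 FPKM (-1.14). The 46 kept DNA replication genes had a median of 0.40, with 6 higher (13%) and 0 lower, near the share over all kept loci. The largest differences among its genes of at least 5 FPKM were in Lig1 (2.22 and 20.9 FPKM, 1.91), Chaf1b (3.10 and 23.6 FPKM, 1.73) and Cdc45 (4.52 and 24.5 FPKM, 1.35). Of 13 cyclin and kinase genes, 3 were higher and 2 lower (median 0.58). Cdk4 was at 59.1 and 324 FPKM (1.58), while Ccnd2, the cyclin D2 gene, was at 481 and 257 FPKM (-1.76) and Cdk6 at 6.20 and 3.25 FPKM (-1.62). Reference genes had a median of -0.41 over 17 genes, with 0 higher and 3 lower: B2m (6389 and 1549 FPKM, -2.90), Actb (24060 and 8421 FPKM, -2.37) and Rplp0 (1356 and 647 FPKM, -1.92). The differences between these medians were not tested.

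Regulators of mitotic transcription had a median of 0.31 over 16 kept genes of 21, with 2 higher (12.5%, near the 10.3% of all kept loci) and 0 lower. Cdkn1a, the p21 gene, whose protein inhibits cyclin-dependent kinases and is commonly raised when cells leave the cycle, was at 3.62 and 44.2 FPKM (2.43). It thus lay further above the median gene than any of the 55 mitotic genes. Lin37, a MuvB subunit gene, was at 3.05 and 16.1 FPKM (1.22) and Nfyb, of NF-Y, at 7.09 and 26.8 FPKM (0.92). Foxm1 and Mybl2 are named after their values were seen: Foxm1 was at 1.11 and 3.64 FPKM (0.28), and Mybl2, the B-MYB gene, stayed under 1 FPKM in both, at 0.08 and 0.58 FPKM.

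**Figure D4:**
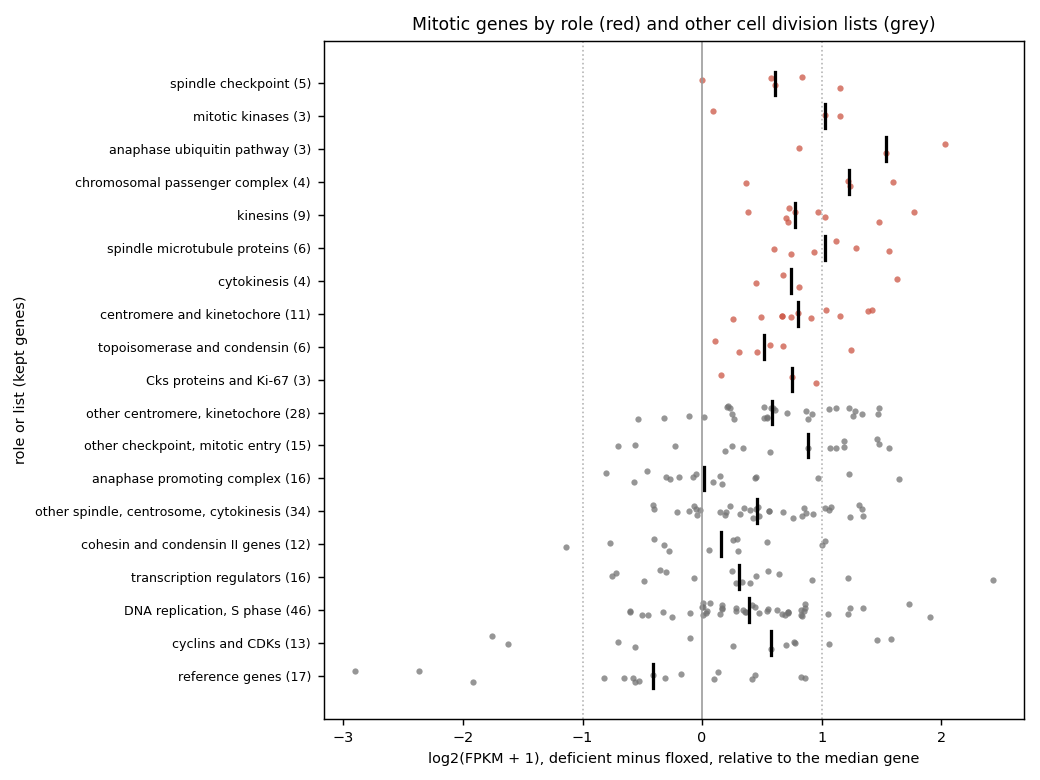
Difference between the libraries (log2(FPKM + 1), deficient minus floxed, relative to the median gene) for each kept gene, by role of the mitotic genes (red) and for other lists (grey); black bars are medians, dotted lines 2-fold, and the vertical scatter is only for display. The role medians run from 0.51 (topoisomerase and condensin) to 1.54 (anaphase ubiquitin pathway), and the reference genes have a median of -0.41.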

How the data were processed

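RNA of each culture was measured as FPKM, which the deposited files hold per transcript as text in an attribute field, beside confidence bounds and coverage. Per the submitters' processing notes, which give neither role nor order, the tools were TopHat2 2.0.5, Cufflinks 2.0.2 and Cuffdiff 2.0.2, on mm9. For annotation, filters and strand, the sources used here state nothing. FPKM is scaled to the library total, so very abundant genes lower the values of the rest. Read counts are not used here, and the depth behind a value is seen only as the deposited coverage.

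The 45543 transcripts carry no symbols and were named against GENCODE M21 by their ordered intron and internal exon lengths, within a chromosome and strand; no coordinate was converted. All 55 members were named by whole chains of at least 2 introns, and 0 of 36943 such chains were found on a wrong chromosome. The 212 loci matching several genes were split by transcript (Foxm1 among them). Cenpb, Fbxo5, Fen1 and Hba-a1 were among the listed genes not matched.

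FPKM was summed per gene. A locus was kept at 1 FPKM in at least 1 library if its longest transcript reached 300 nt: 10758 loci, 8626 of them named. Differences are of log2(FPKM + 1), which understates low genes, centred on the median kept locus. With 1 library per group there is no test. Members and lists were chosen with earlier results of these data known. Every member is named; from each other list, up to 3 kept genes of at least 5 FPKM with the largest absolute relative difference, plus Pparg and cell type markers. Alternatives covered pseudocount, filter, scaling, transcripts used, naming and the fold that counts as a call; limits on the floxed level were added after seeing the data. Steps were tested on simulated data. Python 3.11.15, numpy 2.4.6, pandas 2.3.3, scipy 1.17.1 and matplotlib 3.10.9 were used.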

Additional observations from a re-analysis of the deposited data

How the results depend on the processing

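All 20 members called 2-fold higher relative to the median gene stayed above 0 in every alternative that kept them. Not all of the 20 stayed 2-fold higher. The lowest values included 0.32 for Plk1, 0.42 for Cenpn and 0.47 for Kif11. Filters removed some of the 20: Plk1 was left in 10 of 13 alternatives and Cdc20 in 11. Above 0 means above the median gene only where values were centred. In any alternative, 0 members were 2-fold lower. The count of 20 moved with the scale. It was 50 with no filter on low values (median relative difference 1.63), where the median locus is near 0, and 50 under TPM without centring (median 1.66), which leaves the median locus at 0.86. It was 13 with a filter of 5 FPKM, which raises the median locus to 1.07, and 13 of the 37 members with at least 5 FPKM in the floxed library, a limit chosen after seeing the data. At 1.5-fold it was 41 and at 4-fold 1. The 51 members 2-fold higher as deposited became 15 with upper-quartile scaling (median 0.74, from 1.66) and 16 at 4-fold. In the main setting 10.3% of kept loci were 2-fold higher relative to the median gene and 42% as deposited. The share of all kept loci under each alternative is not given here. These counts therefore do not set the members apart from other loci. Of 676 values of single members under an alternative, 120 moved by 1.5-fold or more from the main setting. Of the 676, 19 lay below 0, among Bub1b, Smc4, Cks1b, Melk and Incenp. Leaving out a replicate was not possible. No paired analysis was possible because each group has 1 library. Depth is given only as the mean coverage of each transcript, and what it limits was not measured. Some called members had low coverage of the main transcript in the floxed library. It was 0.25 reads per base for Plk1, 0.7 for Kif4, 0.751 for Cdc20 and 0.87 for Knstrn.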
